A study of Mus musculus with 4 samples.

Results

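CA2 pyramidal neurons were picked out of single-nucleus RNA sequencing of the mouse hippocampus as 173 of 55295 nuclei that passed quality limits. A nucleus was taken as CA2 when it held at least 1 UMI (unique molecular identifier, 1 counted transcript) of at least 3 of the 7 genes Amigo2, Map3k15, Rgs14, Necab2, Ntf3, Cacng5 and Scgn, together with Slc17a7, the vesicular glutamate transporter of hippocampal pyramidal cells. Nuclei with more than 1 UMI of Gad1 and Gad2, the GABA-synthesizing enzymes, or with 2 or more of 4 granule cell genes or of 6 glial genes were left out. The wild-type (WT) libraries gave 68 and 42 CA2 nuclei and the knock-in (KI) libraries 30 and 33. Each library held nuclei from both hippocampi of 1 adult mouse, with 2 mice of each genotype, littermates, processed in 1 labelled batch. KI mice were heterozygous for a point mutation of Cyfip2 in every cell, written Cyfip2+/R87C, which models West syndrome, an infantile epilepsy. The treatment label of KI library 2 reads R88C, while its genotype label and title read KI and its protocol names R87C, so it was counted as KI. No drug or other treatment was given in the labels, and the labels give neither age nor sex. Throughout, n is 2 mice per genotype. The p-values of KI against WT rest on the spread between mice, in edgeR estimated partly across genes. The tests of a genotype effect between cell classes compare sums within each mouse. Their p-values do not measure the spread of a gene's level between mice.

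CA2 is the short stretch of the pyramidal layer between CA3 and CA1. Its neurons are known for resistance to the long-term potentiation that is easily induced in CA1, a property tied to the scaffold Rgs14 and to strong calcium buffering and extrusion, for a matrix net around their cell bodies, and for a need in social memory. They receive vasopressin through Avpr1b and respond to adenosine through the A1 receptor Adora1. Cyfip2 is a subunit of the WAVE regulatory complex, which controls branched actin assembly.

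Depth differed between libraries. CA2 nuclei had a median of 9090.5 and 8716 UMIs in WT and 13660 and 10025 UMIs in KI, against medians of 3987 to 4853 UMIs over all nuclei of a library. Summed over the CA2 nuclei of a library, the counts came to 685419 and 426788 UMIs in WT and 410874 and 356522 UMIs in KI. KI library 1 thus had the fewest but deepest CA2 nuclei. Between 40 and 67 cell barcodes were shared by any pair of libraries.

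The genes of the rule were not equally detected. Of the 173 nuclei, 119 held Necab2, a neuronal calcium-binding protein, 115 held Ntf3, which encodes neurotrophin-3, and 102 held Map3k15, a kinase. Cacng5, an AMPA receptor auxiliary subunit, was found in 91 nuclei, Amigo2, an adhesion protein, in 87 and Rgs14 in 80. Scgn, a calcium sensor, was found in 3 nuclei. No nucleus held all 7 genes, 4 held 6, 11 held 5, 44 held 4 and 114 held exactly 3. A further 535 nuclei held exactly 2 and lay just outside the rule, 97 and 163 in WT and 121 and 154 in KI. Levels are given as CPM, the UMIs of a gene in the summed nuclei of a library scaled to a fixed total. Ntf3 stood at 137 and 119 CPM in WT, and at 41.4 and 118 CPM in KI, so KI library 1 was below the other 3. Amigo2 stood at 59.8 and 86.7 CPM in WT, and at 41.4 and 47.7 CPM in KI, and Map3k15 at 84.6 and 79.7 CPM in WT, and at 70.6 and 126 CPM in KI. Rgs14 stood at 59.8 and 63.3 CPM in WT, and at 31.6 and 53.3 CPM in KI. These genes chose the nuclei, so their levels are given without a test.

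Markers that the rule did not use were compared with those in 2237 CA1 and 2405 CA3 nuclei gated on their own genes. These gates also limited genes of the other list and CA2 genes, while the CA2 rule set no limit on CA1 or CA3 genes. The comparison is a description, since the nuclei were chosen by their own transcripts. Strip2, a component of a phosphatase and kinase complex, was at 134 to 165 CPM across the 4 CA2 sums, 19.6 to 40.5 CPM in CA1 and 26.1 to 37.01 CPM in CA3. Ptpn5, the striatal-enriched tyrosine phosphatase STEP, was at 235 to 330.4 CPM in CA2, 57.3 to 86.04 CPM in CA1 and 56.4 to 95.7 CPM in CA3. Both genes were higher in every CA2 sum than in any CA1 or CA3 sum.

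Vit and Fgf5 were likewise highest in CA2. Vit, the matrix protein vitrin, was at 64.2 to 99.8 CPM in CA2, 1.12 to 3.16 CPM in CA1 and 16.5 to 21.9 CPM in CA3. Fgf5, a fibroblast growth factor, was at 55.4 to 89.04 CPM in CA2, 1.98 to 4.997 CPM in CA1 and 9.65 to 19.4 CPM in CA3. Pcp4, a calmodulin-binding peptide, was at 53.5 to 86.7 CPM in CA2 and at most 34.3 CPM in the other sums. Avpr1b was scarce, at 0 to 8.75 CPM. Adora1 and Actn2 were no higher in CA2 than in CA3, so the label rested on the other markers. Stard5, a cholesterol transfer protein, was at 271 and 295 CPM in WT, and at 68.1 and 266 CPM in KI, and Srl, the calcium-buffering protein sarcalumenin, at 62.7 and 72.6 CPM in WT, and at 12.2 and 50.5 CPM in KI. For both, KI library 1 lay within the range of the CA1 and CA3 sums while the other 3 CA2 sums stood above them.

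**Figure D1:**
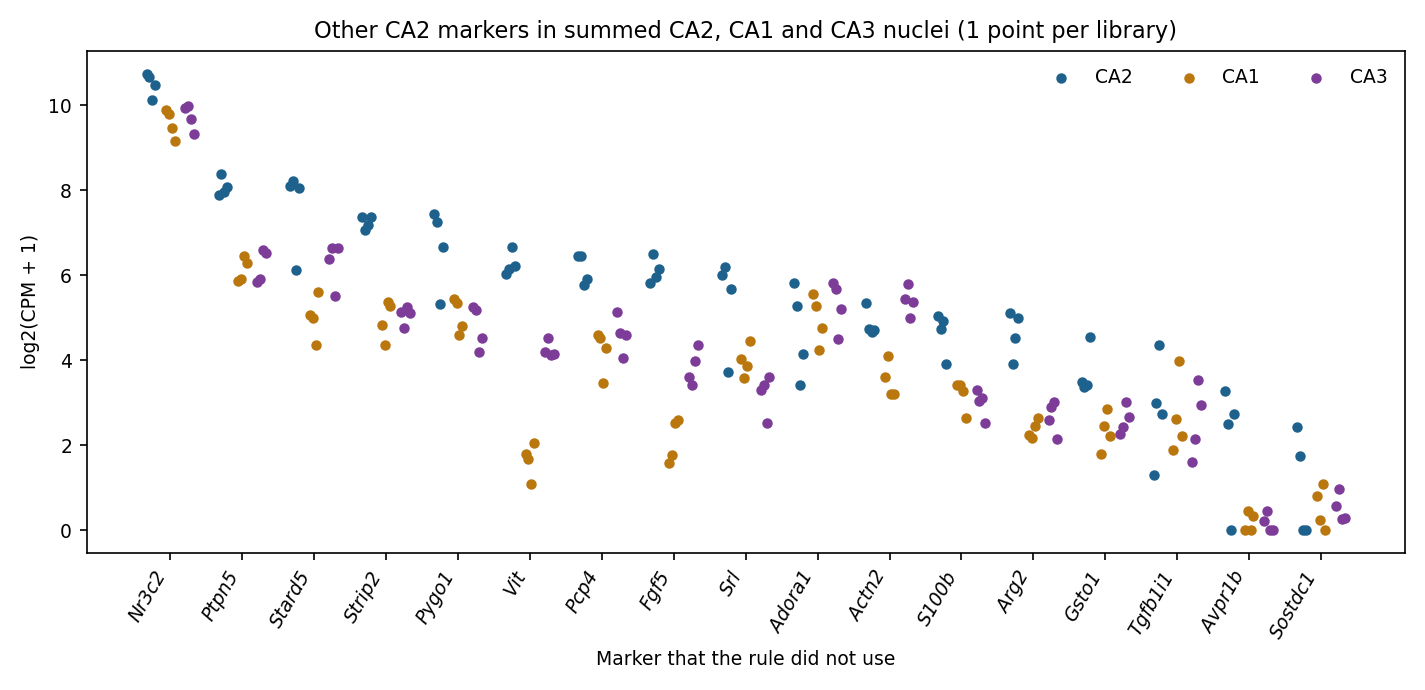
Levels of the 17 CA2 markers that the rule did not use, as log2(CPM + 1) on the vertical axis, 1 point per library for the summed CA2, CA1 and CA3 nuclei. Ptpn5, Strip2, Vit and Fgf5 are higher in all 4 CA2 sums than in any CA1 or CA3 sum, while Adora1 and Actn2 overlap.

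Vit and Strip2 were higher, and the CA1 gene Man1a lower, in nuclei with 3 or more rule genes than in nuclei with fewer. Other markers outside the rule did not all follow, such as Tgfb1i1, at 11.5 CPM with 2 rule genes, 5.97 with 3 and 9.89 with 4 or more, and Adora1, at 33.9 CPM with none, 31.0 with 1, 28.7 with 2, 29.0 with 3 and 42.4 CPM with 4 or more. Over Slc17a7 nuclei of the 4 libraries pooled, Vit was at 6.45 CPM with no rule gene, 13.2 with 1, 30.8 with 2, 71.7 with 3 and 80.5 with 4 or more. Strip2 ran from 24.1 CPM through 29.9, 49.2 and 143 to 169 CPM over the same classes. Man1a, a mannosidase used here as a CA1 gene, ran from 370 CPM through 303, 209 and 52.9 to 41.0 CPM. For each of these 3 genes the largest step in CPM was that between 2 and 3 rule genes. The CA3 gene Prkcd was at 6.69 CPM with 2 rule genes and at 0 in all members.

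**Figure D2:**
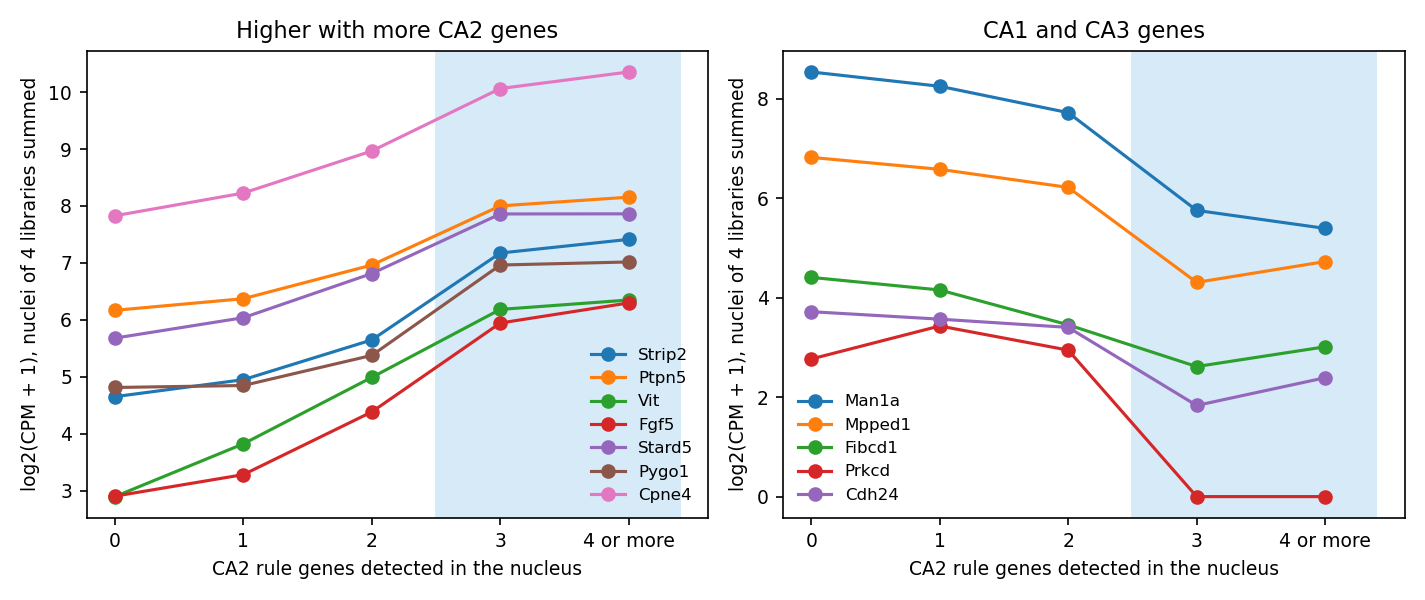
Levels pooled over the 4 libraries, as log2(CPM + 1), by the number of CA2 rule genes detected in a nucleus, with the members of CA2 on the shaded ground. The plotted markers Strip2, Ptpn5, Vit, Fgf5, Stard5 and Pygo1, and Cpne4, are higher at 3 and at 4 or more genes than at 2, while the CA1 genes Man1a, Mpped1 and Fibcd1 are lower.

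Part of the CA3 gene list was also a feature of CA2. Cpne4, the calcium-dependent membrane-binding protein copine 4, was at 1051 to 1251 CPM in CA2, above the 571 to 730.1 CPM of CA3 and far above the 9.67 to 27.04 CPM of CA1. Grik4, a kainate receptor subunit, was at 675 to 836 CPM in CA2 and 765 to 1059.8 CPM in CA3. Nectin3 was lower in CA2, at 43.8 to 68.6 CPM against 181 to 283 CPM in CA3, and Cdh24 and Prkcd were at 0 to 5.84 CPM. In all, 117 of the 173 nuclei held at least 3 of the 9 CA3 genes, 12 held at least 3 of the 7 CA1 genes and 107 held none of the CA1 genes.

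Beyond the marker lists, genes were ranked by how far the lowest CA2 sum lay above the highest CA1 or CA3 sum, and the names that follow were chosen after their values were seen. The long noncoding RNA Gm43154 led, at 276 and 326 CPM in WT, and at 114 and 177 CPM in KI in CA2 against at most 14.6 CPM elsewhere. Next came Ctsc, the lysosomal protease cathepsin C, at 38.9 to 70.1 CPM in CA2 and at most 5.82 CPM elsewhere. Fyb2, an adaptor protein, was at 211 to 342 CPM in CA2 and at most 34.7 CPM elsewhere. Lrp2, the endocytic receptor megalin, was at 40.9 to 72.9 CPM in CA2 and at most 11.0 CPM elsewhere.

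Htr7, Camk4 and Kcnk2 stood further down the ranking. Htr7, a serotonin receptor, was at 58.4 to 94.8 CPM in CA2, 1.98 to 7.59 CPM in CA1 and 19.2 to 25.7 CPM in CA3. Camk4, a calcium- and calmodulin-dependent kinase, was at 577 to 617 CPM in CA2, 149 to 185 CPM in CA1 and 208 to 272 CPM in CA3. Kcnk2, the background potassium channel TREK-1, was at 378 and 335 CPM in WT, and at 148 and 269 CPM in KI and at most 76.5 CPM in the CA1 and CA3 sums. In the other direction, Prkcb, a protein kinase C, was at 70.1 to 134 CPM in CA2, 623 to 940.4 CPM in CA1 and 317 to 489 CPM in CA3. Ncam1, an adhesion molecule, was at 60.9 to 156 CPM in CA2, 368 to 444 CPM in CA1 and 383 to 427 CPM in CA3. Lifr, the leukaemia inhibitory factor receptor, was at 7.29 to 19.5 CPM in CA2 and at least 50.9 CPM in every CA1 and CA3 sum.

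Markers of other cells were also summed over the CA2 nuclei, though the gate itself removed nuclei with 2 or more UMIs of Gad1 and Gad2 or with 2 or more of its granule or glial genes. The summed level of 10 oligodendrocyte genes was 257 and 180 CPM in WT CA2 and 370 and 306 CPM in KI CA2, against 900.3 to 2067 CPM over all nuclei. Log2 fold changes of the 4 of these genes that were tested ran from -0.43 to 2.21. The highest were those of Apod and Ptgds, both described below, so the higher KI sums do not describe the whole list. Of 10 inhibitory neuron genes the sum was 44.9 to 99.8 CPM with Lhx6 at 0, and of 8 astrocyte genes 82.8 to 105 CPM with Gfap at 0. The 7 microglial genes summed to 80.3 to 119 CPM, against 197 to 208 CPM over all nuclei, and the 8 granule cell genes to 42.1 to 87.6 CPM with Pla2g2f at 0. The 6 mossy cell genes summed to 147 to 163 CPM, above the 119 to 142 CPM of all nuclei, with Drd2 at 0. Cldn5, Flt1, Pecam1 and Col1a2 of the vascular list were at 0. The 9 subicular or cortical genes summed to 156 to 222 CPM in CA2, against 339 to 583 CPM over all nuclei. In the CA1 comparison nuclei they summed to 144 and 395 CPM in WT and to 171 and 563 CPM in KI. Library 2 of each genotype was thus the higher there. The CA1 list summed to 90.5 and 89.0 CPM in WT against 112 and 107 CPM in KI, and without its most abundant member, Man1a, to 48.1 and 63.3 CPM in WT against 43.8 and 42.1 CPM in KI, the lower in KI, a split made after the values were seen. A doublet score above 0.25 was given to 9 of the 173 nuclei.

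The share of nuclei that met the rule was 0.426% and 0.319% in WT and 0.239% and 0.243% in KI. The exact binomial 95% intervals, which cover counting error only, were 0.331 to 0.539% and 0.230 to 0.431% in WT and 0.161 to 0.341% and 0.167 to 0.341% in KI. The genotype means were 0.372 ± 0.0752% and 0.241 ± 0.00265% (SD, n = 2 each), a difference of -0.131 percentage points. Both KI shares were below both WT shares, but an exact two-sided permutation test gave p = 0.333, which is the smallest it can give with 2 mice against 2. Among nuclei that met the neuronal limits without the CA2 genes, the shares were 1.69% and 1.06% in WT and 0.998% and 0.769% in KI.

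The difference depended on the number of genes asked for. With at least 2 of the 7 genes it was -0.00599 percentage points (exact permutation p = 1.0), with shares of 1.03% and 1.56% in WT and 1.20% and 1.38% in KI. With at least 4 genes the shares were 0.156% and 0.106% in WT and 0.0558% and 0.0956% in KI. When each nucleus was thinned to 5000 UMIs, a setting added after the data were seen, 15 and 19 WT nuclei and 1 and 11 KI nuclei met the rule. Thinned to 2000 UMIs, 2 and 2 WT nuclei and 1 and 0 KI nuclei remained, too few to compare. The thinning left out the 10039 and 7194 WT and the 6599 and 7036 KI nuclei that had fewer than 5000 UMIs.

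**Figure D3:**
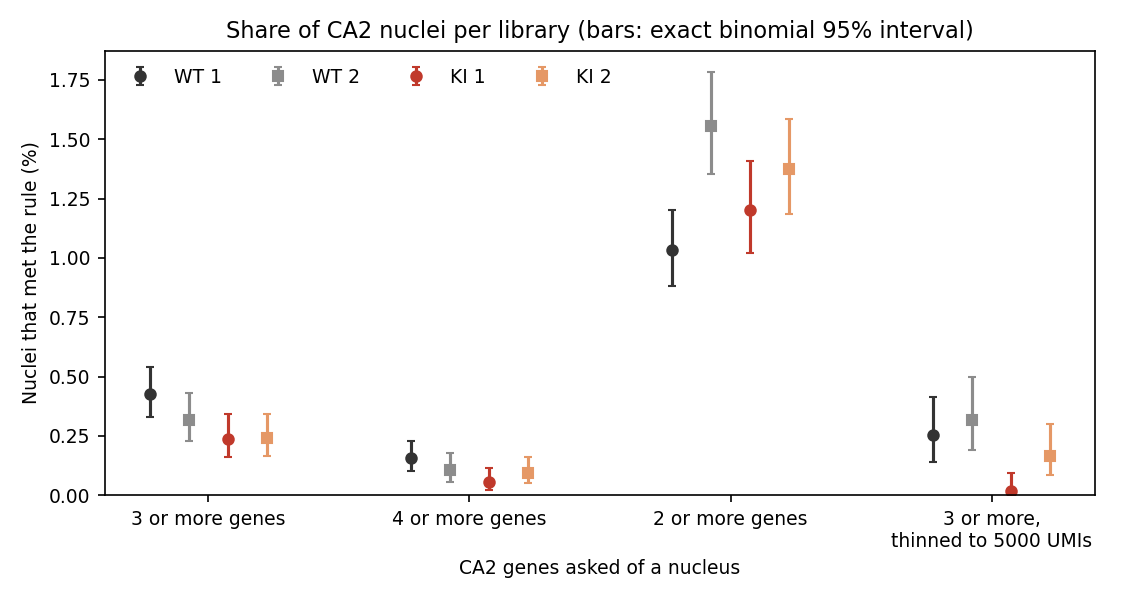
Share of nuclei, in percent, that met the CA2 rule in each library, for 3 or more, 4 or more and 2 or more of the 7 genes and for 3 or more genes after thinning to 5000 UMIs. Bars are exact binomial 95% intervals, and the KI points lie below both WT points in every setting except 2 or more genes.

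Genotypes were then compared within CA2 by summing counts over the CA2 nuclei of each mouse. Of 5595 genes tested with edgeR's quasi-likelihood test, 18 passed an adjusted p of 0.05, 15 of them higher in KI (0.268% of the genes tested) and 3 lower (0.0536%). At an unadjusted p under 0.05 there were 647 genes (11.6%), 330 higher (5.9%) and 317 lower (5.67%). DESeq2 called 10 genes (0.179%), 8 of them among the 18. The genes that passed were 10 protein-coding genes and 8 noncoding transcripts, and none of the rule genes. Scaling by library totals alone left 5 calls, 3 higher and 2 lower. With the 9 nuclei of high doublet score removed 2 calls were left, Pde10a and A230006K03Rik. Left without 1 library, the counts were 25 without WT 1, 36 without WT 2, 39 without KI 1 and 395 without KI 2, and all 18 genes kept their direction in each. Each of the 18 calls was lost in 1 to 8 of the 13 or 14 alternatives with a value for it, and all 18 were lost with at least 2 rule genes.

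The mutated gene itself gave similar totals in both genotypes. Cyfip2 was at 236 and 239 CPM in WT, and at 183 and 247 CPM in KI in CA2 (log2 fold change -0.089, SE 0.21, adjusted p = 0.924). The counts do not separate the mutant from the normal allele, so they do not check the genotype labels. Of the 11 genes of the WAVE regulatory complex, 9 were tested and none passed, against 0.322% of all genes. 1 of the 9 was below an unadjusted p of 0.05, beside 11.6% of all genes tested. It was Cyfip1, the paralog of Cyfip2, at 112 and 110.1 CPM in WT, and at 178 and 140.2 CPM in KI (log2 fold change 0.58, adjusted p = 0.313). The median log2 fold change of the 9 genes was -0.05, beside 0.01 over all genes tested.

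The change with the smallest p was in Pde10a, a phosphodiesterase that breaks down cyclic AMP and cyclic GMP. Pde10a (chr17:8525372-8986648, plus strand) was at 575 and 513 CPM in WT, and at 178 and 191 CPM in KI. Both KI sums lay far below both WT sums, and the transcript was seen in 62 of 68 and 38 of 42 WT nuclei and in 24 of 30 and 22 of 33 KI nuclei. Means were 544 ± 43.6 CPM in WT and 184 ± 9.24 CPM in KI (SD, n = 2 each), and Pde10a fell by 1.503 on the log2 scale (SE 0.19, adjusted p = 0.00183). In CA1 the log2 fold change was -0.69 (adjusted p = 0.0416) and in CA3 -0.53 (adjusted p = 0.167). The change in CA2 differed from that in CA1 by -0.802 (adjusted p = 0.0213) and from that in CA3 by -0.98 (adjusted p = 0.000896) on the log2 scale. Both differences lost their call without WT library 1 (adjusted p = 0.43 and 0.128), WT library 2 (0.156 and 0.0797) or KI library 1 (0.417 and 0.293). The call in CA2 itself was lost in 1 of 14 alternatives, with at least 2 rule genes (-0.83, adjusted p = 0.211).

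The other falls were in a pair of noncoding RNAs that overlap on opposite strands of chromosome 3. 1700007F19Rik (chr3:58141707-58163807, minus strand) was at 314 and 305 CPM in WT, and at 58.4 and 132 CPM in KI and fell by 1.66 on the log2 scale (SE 0.27, adjusted p = 0.0117). 4921539H07Rik (chr3:58117053-58167616, plus strand) was at 617 and 586 CPM in WT, and at 109.5 and 325 CPM in KI and fell by 1.43 (SE 0.29, adjusted p = 0.0448). In WT both stood higher in CA2 than in CA1 and CA3. WT levels of 4921539H07Rik were 247 and 211 CPM in CA1 and 116 and 92.9 CPM in CA3. The part of other pyramidal nuclei inside the gate in these falls was not tested. KI levels of 4921539H07Rik in CA2 were lowest in library 1, and without that library the log2 fold change was -0.82, against -2.405 without KI library 2. The call of 4921539H07Rik was lost in 5 of 14 alternatives, among them DESeq2 (adjusted p = 0.562), library totals (0.0866) and sums thinned to equal depth (0.142). For 1700007F19Rik, whose call was lost in 3 of 14, the change without KI library 2 was -2.35. The strand setting of the counting is not given in the sources used here, so reads of the pair may not be fully separated.

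The next genes with lower values in KI, by unadjusted p, did not pass. Epha10, an Eph receptor without kinase activity, was at 162 and 149.96 CPM in WT, and at 60.8 and 72.9 CPM in KI (log2 fold change -1.17, adjusted p = 0.0541). Lzts1, a postsynaptic density protein, was at 84.6 and 67.9 CPM in WT, and at 21.9 and 28.05 CPM in KI (log2 fold change -1.57, adjusted p = 0.0673). Gm28153, a transcript antisense to Crispld1, was at 96.3 and 70.3 CPM in WT, and at 12.2 and 33.7 CPM in KI (log2 fold change -1.86, adjusted p = 0.0564). For all 3 genes both KI sums lay below both WT sums, as they did for 25.6% of the genes tested.

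Noncoding transcripts also led the rises. A230006K03Rik (chr7:61127996-61311721), a long noncoding RNA 987777 bases from its nearest protein-coding gene, the imprinted Snrpn, was at 216 and 248 CPM in WT, and at 669 and 519 CPM in KI. It rose by 1.43 on the log2 scale (SE 0.19, adjusted p = 0.00183) and kept its call in 13 of 14 alternatives. It also rose in CA1 (log2 fold change 1.03, adjusted p = 0.0106) and CA3 (0.801, adjusted p = 0.0378). A330008L17Rik (chr8:99416642-99733438), which begins 171 bases from the cadherin gene Cdh8 on the opposite strand, was at 201 and 192 CPM in WT, and at 725 and 398 CPM in KI (log2 fold change 1.58, SE 0.24, adjusted p = 0.00573). KI library 1 carried the higher of its KI values, and without it the change was 1.08 (adjusted p = 0.000758). It rose in CA1 and CA3 too, by 1.36 and 1.37 (adjusted p = 0.00919 and 0.036).

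The largest rise was in 2810049E08Rik (chr13:83891208-83928710), a long noncoding RNA 224128 bases from Mef2c, at 16.05 and 16.4 CPM in WT, and at 129 and 56.1 CPM in KI. Its log2 fold change was 2.58 (SE 0.42, adjusted p = 0.0117), and 1.84 without KI library 1 (adjusted p = 0.078). In CA1 and CA3 its values were 1.101 and 1.67 (adjusted p = 0.171 and 0.121). Gm20754, an abundant long noncoding RNA, was at 1538 and 1329 CPM in WT, and at 2190.5 and 2249.5 CPM in KI (log2 fold change 0.69, SE 0.14, adjusted p = 0.0428). Without WT library 2 its change was 0.57 (adjusted p = 0.335). 4732471J01Rik, which runs antisense across several genes of chromosome 7, was at 105 and 89.04 CPM in WT, and at 229 and 213 CPM in KI (log2 fold change 1.23, adjusted p = 0.0234, and 0.157 without WT library 2). Both also rose in the neighbouring classes, Gm20754 by 0.88 in CA1 and 0.71 in CA3 (adjusted p = 0.0266 and 0.0378) and 4732471J01Rik by 1.004 and 0.82 (0.0332 and 0.0421).

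4930590L20Rik (chr1:140570176-140656404) lies antisense to Kcnt2, a sodium-activated potassium channel gene. The antisense transcript was at 33.6 and 25.8 CPM in WT, and at 90.1 and 92.6 CPM in KI and rose by 1.64 on the log2 scale (SE 0.31, adjusted p = 0.033). Kcnt2 was at 212 and 187 CPM in WT, and at 406 and 292 CPM in KI, with a log2 fold change of 0.87 that did not pass (adjusted p = 0.0858). In CA3 the changes were 0.11 for 4930590L20Rik and 0.018 for Kcnt2. The genotype effect in CA2 exceeded that in CA3 for both, by 1.497 (adjusted p = 0.00314) and 0.82 (adjusted p = 0.0206). Against CA1, where the changes were 0.65 and 0.19, the differences of 0.99 and 0.68 did not pass (adjusted p = 0.237 and 0.0971). Without WT library 2 the call of 4930590L20Rik in CA2 was lost (adjusted p = 0.092), as was its difference from CA3 (0.415). The difference of Kcnt2 was lost without WT library 1, WT library 2 or KI library 1 (adjusted p = 0.211, 0.783 and 0.513).

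Among the protein-coding genes that rose was Tenm4 of the adhesion list. Tenm4, a teneurin of synaptic adhesion, was at 413 and 422 CPM in WT, and at 713 and 665 CPM in KI (log2 fold change 0.79, SE 0.16, adjusted p = 0.0456). Edil3, a secreted integrin ligand, was at 71.5 and 98.4 CPM in WT, and at 214 and 196 CPM in KI (log2 fold change 1.37, SE 0.24, adjusted p = 0.017). Adamtsl1, a secreted matrix protein, was at 27.7 and 42.2 CPM in WT, and at 117 and 95.4 CPM in KI (log2 fold change 1.71, SE 0.31, adjusted p = 0.0234). Single nuclei held 8 of its 18 UMIs in WT library 2, 14 of 48 in KI library 1 and 10 of 34 in KI library 2. For each of the 3 genes WT CA2 stood below CA1 and CA3, with Adamtsl1 at 192 and 136 CPM in WT CA1 and 177 and 162 CPM in WT CA3. The KI sums of CA2 lay nearer to these levels. Of the CA1 list, Man1a was at 42.3 and 25.8 CPM in WT, and at 68.1 and 64.5 CPM in KI (log2 fold change 0.96, adjusted p = 0.236) and turned to -0.15 with at least 2 rule genes, while the sum of the other 6 genes was the lower in KI. The part of other pyramidal nuclei inside the gate in these rises was not tested. The call of Tenm4 was lost without WT library 1 or 2 (adjusted p = 0.278 and 0.297), and those of Edil3 and Adamtsl1 without WT library 1 (0.214 and 0.211). None of the 3 passed in CA1, with values of 0.19, 0.51 and -0.016, or in CA3, with 0.075, 0.45 and 0.34.

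Rgs6, an accelerator of G protein turn-off, was at 10.2 and 30.5 CPM in WT, and at 102 and 61.7 CPM in KI (log2 fold change 2.22, SE 0.42, adjusted p = 0.033). The UMIs were few, 7 and 13 in WT and 42 and 22 in KI, and single nuclei gave 16 of the 42 UMIs of KI library 1, 12 of the 22 of KI library 2 and 8 of the 13 of WT library 2. Nrg1, a ligand of ErbB receptors, was at 153 and 284 CPM in WT, and at 762 and 370.2 CPM in KI (log2 fold change 1.48, SE 0.29, adjusted p = 0.0388). One nucleus held 80 of its 313 UMIs in KI library 1 and one held 57 of 132 in KI library 2, and the Nrg1 change turned to -1.32 in nuclei with at least 4 rule genes. Phka2, a regulatory subunit of phosphorylase kinase, was at 59.8 and 58.6 CPM in WT, and at 139 and 129 CPM in KI (log2 fold change 1.24, SE 0.25, adjusted p = 0.0428). Without WT library 1 the change was 1.51 for Rgs6 (adjusted p = 0.224), 1.08 for Nrg1 (0.0511) and 1.27 for Phka2 (0.232). Without WT library 2 it was 3.02 for Rgs6 and 1.199 for Phka2 (adjusted p = 0.208 for Phka2), and without KI library 1 it was 0.88 for Nrg1. In CA1 and CA3 of the same mice the changes were 1.03 and 0.902 for Phka2 (adjusted p = 0.0193 and 0.059), 1.06 and 0.98 for Rgs6 (0.136 and 0.0616) and 0.27 and 1.61 for Nrg1 (0.493 and 0.0785).

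Srsf10, a splicing factor, was at 42.3 and 46.9 CPM in WT, and at 153 and 89.8 CPM in KI (log2 fold change 1.53, SE 0.304, adjusted p = 0.0408). Without KI library 1 its change was 1.09 (adjusted p = 0.108) and without WT library 1 1.46 (0.119). Myo16, an unconventional myosin of neurons, was at 18.97 and 39.8 CPM in WT, and at 97.4 and 78.5 CPM in KI (log2 fold change 1.73, SE 0.36, adjusted p = 0.0448), with UMI counts of 13 and 17 in WT and 40 and 28 in KI. Without WT library 1 its change was 1.22 (adjusted p = 0.422). Myo16 also rose in CA1, by 1.09 (adjusted p = 0.0223), and had a value of 0.74 in CA3 (0.0613), beside 0.55 and 0.73 for Srsf10 (0.255 and 0.189).

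**Figure D4:**
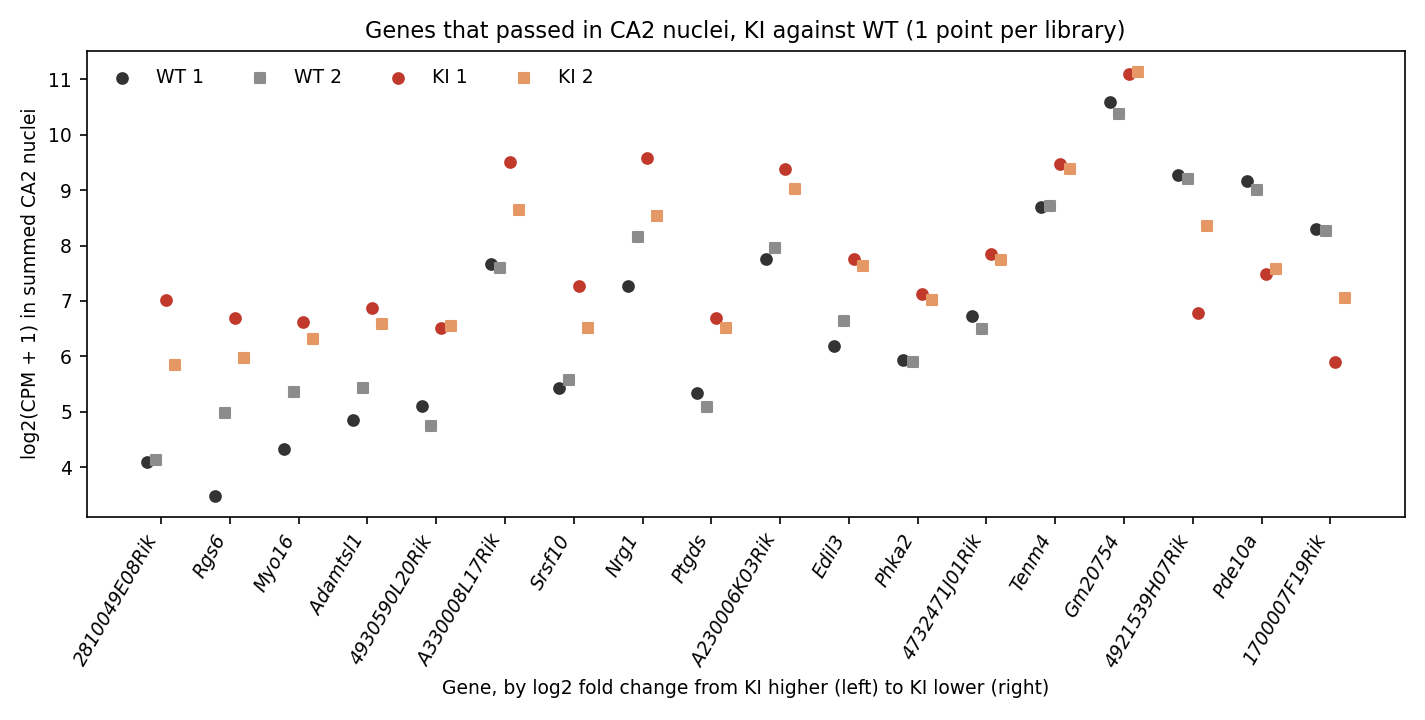
Levels of the 18 genes that passed in CA2 nuclei, as log2(CPM + 1) on the vertical axis, 1 point per library, ordered from the largest rise to the largest fall in KI. The WT and KI points do not overlap for any of the 18, and KI library 1 stands apart from KI library 2 for 2810049E08Rik, Nrg1 and the chromosome 3 pair.

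The last gene to rise, Ptgds, encodes prostaglandin D2 synthase and belongs to the oligodendrocyte list. It was at 39.4 and 32.8 CPM in WT, and at 102 and 89.8 CPM in KI in CA2 (log2 fold change 1.45, SE 0.302, adjusted p = 0.0456). Without WT library 1 or 2 the adjusted p was 0.113 or 0.193. Per nucleus there were 0.397 and 0.333 Ptgds UMIs in WT CA2 and 1.40 and 0.970 UMIs in KI CA2. Similar numbers were found in CA1, at 0.531 and 0.368 UMIs in WT and 1.47 and 0.921 UMIs in KI, and in CA3, at 0.486 and 0.437 UMIs in WT and 1.54 and 0.885 UMIs in KI. Apod, which encodes the lipid carrier apolipoprotein D, was at 20.4 and 18.7 CPM in WT, and at 136 and 36.5 CPM in KI in CA2 and did not pass (log2 fold change 2.21, adjusted p = 0.0576), and its change was 0.94 without KI library 1 (adjusted p = 0.702). Its UMIs per nucleus, at 0.206 and 0.190 in WT CA2 and 1.87 and 0.394 in KI CA2, also lay near those of CA1 and CA3. Of the 10 oligodendrocyte genes 4 were tested, and Ptgds alone passed, beside 0.322% of all genes tested. The part of transcripts from outside the nucleus was not tested.

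Genes that mark CA2 were then compared between genotypes. Of the 17 markers outside the rule 13 were tested and none passed, with a median log2 fold change of -0.35 beside 0.01 over all genes tested. 4 of the 13 had lower values in KI at an unadjusted p under 0.05 and 0 had higher, beside 5.67% and 5.9% of all genes tested. A scarce gene can become abundant enough to test through its WT counts alone, as Adora1 did. The counts of direction are therefore a description of the markers tested. Adora1 was at 55.4 and 37.5 CPM in WT, and at 9.74 and 16.8 CPM in KI (log2 fold change -1.79, adjusted p = 0.107). Pygo1, a cofactor of Wnt signalling, was at 174 and 152 CPM in WT, and at 38.9 and 101 CPM in KI (-1.195, adjusted p = 0.103). Without KI library 1 the value of Pygo1 was -0.63. Srl had a log2 fold change of -1.08 (adjusted p = 0.313), and -0.34 without KI library 1. Nr3c2, the mineralocorticoid receptor, was at 1713 and 1633 CPM in WT, and at 1109.8 and 1419 CPM in KI (-0.34, adjusted p = 0.38). Its value was -0.17 without KI library 1. Among the other markers were Strip2 (0.095, SE 0.23), Ptpn5 (-0.048, SE 0.21) and Fgf5 (-0.037, SE 0.31). 7 of the 13 had both KI sums below both WT sums and 1 had them above, beside 25.6% and 16.7% of all genes tested. In the tests of the difference between classes, Stard5 differed from CA1 by -0.91 (adjusted p = 0.0372), with KI library 1 holding the low value, and Ptpn5 from CA3 by -0.83 (adjusted p = 0.0347). The CA2 sums of Ptpn5 overlapped between genotypes. Both differences lost their call without WT library 1, WT library 2 or KI library 1, where that of Stard5 was -0.68 without KI library 1 (adjusted p = 0.529; -1.43 without KI library 2) and that of Ptpn5 -0.64 without WT library 2 (adjusted p = 1).

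Genes induced by neuronal activity also gave no call. Of 30 such genes 7 were abundant enough to test, all 7 with negative log2 fold changes, beside 49.2% of all genes tested, and a median of -0.65. 3 of the 7 had lower values in KI at an unadjusted p under 0.05 and 5 had both KI sums below both WT sums, beside 5.67% and 25.6% of all genes tested. A scarce gene can become abundant enough to test through its WT counts alone, as Nr4a1 did. The counts of direction are therefore not a result about the list. Nr4a1, an immediate-early nuclear receptor, was at 46.7 and 58.6 CPM in WT, and at 14.6 and 8.41 CPM in KI (log2 fold change -2.06, SE 0.47, adjusted p = 0.0673). Bdnf, brain-derived neurotrophic factor, was at 36.5 and 60.9 CPM in WT, and at 24.3 and 19.6 CPM in KI (-1.01, adjusted p = 0.364). Homer1, a postsynaptic scaffold with an activity-induced short form, was at 235 and 180.4 CPM in WT, and at 112 and 146 CPM in KI (-0.65, adjusted p = 0.263). Homer1 fell in CA1 (log2 fold change -1.25, adjusted p = 0.00677), and the test of the difference between CA2 and CA1 gave an adjusted p of 0.341. Arc, an immediate-early gene of synapses, was untested in CA2 at 18.97 and 18.7 CPM in WT, and at 7.302 and 0 CPM in KI, and Fosb was at 0 in all 4 CA2 sums, where 3 UMIs would be 4.38 and 7.03 CPM in WT against 7.30 and 8.41 CPM in KI.

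None of the 45 ion channel genes tested, of 56 listed, passed. 7 had higher and 5 lower values in KI at an unadjusted p under 0.05, or 12 of 45 beside 11.6% of all genes tested (5.9% higher and 5.67% lower). Among sodium and calcium channels, Scn1a was at 217 and 194 CPM in WT, and at 309 and 280.5 CPM in KI (log2 fold change 0.58, adjusted p = 0.235) and Cacna1c at 1059 and 1024 CPM in WT, and at 1448 and 1346 CPM in KI (0.49, adjusted p = 0.146). Kcnq3, a subunit of the M-current channel, was at 366 and 401 CPM in WT, and at 239 and 244 CPM in KI (-0.601, adjusted p = 0.182), and Kcnd2, the A-type channel Kv4.2, at 4295 and 3526 CPM in WT, and at 2638 and 3127 CPM in KI (-0.38, adjusted p = 0.279). Without WT library 1 the value of Kcnd2 was -0.21. Kcnk2 was at 378 and 335 CPM in WT, and at 148 and 269 CPM in KI (-0.72, adjusted p = 0.198), with the lower KI value in library 1. Dpp10, an auxiliary subunit of A-type channels, was at 97.8 and 192 CPM in WT, and at 341 and 261 CPM in KI (1.17, adjusted p = 0.0673) and turned to -1.19 in nuclei with at least 4 rule genes.

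Synaptic receptor genes likewise did not pass. 4 of 23 tested glutamate receptor genes had higher values in KI at an unadjusted p under 0.05 and 0 had lower, beside 5.9% and 5.67% of all genes tested. Grin1, the obligatory NMDA receptor subunit, was at 302 and 298 CPM in WT, and at 540.3 and 421 CPM in KI (log2 fold change 0.75, adjusted p = 0.0955). Grik2, a kainate receptor subunit, was at 659 and 581 CPM in WT, and at 947 and 763 CPM in KI (0.52, adjusted p = 0.184). Of 15 tested genes of GABA receptors and chloride transport, Gabra2 was at 298 and 328 CPM in WT, and at 441 and 468 CPM in KI (0.61, adjusted p = 0.148). Slc12a2, the chloride importer NKCC1, was at 70.03 and 46.9 CPM in WT, and at 17.04 and 22.4 CPM in KI (-1.54, adjusted p = 0.103). The genotype effect on Gabra2 differed between CA2 and CA1 by 0.82 on the log2 scale (adjusted p = 0.00802), with -0.21 in CA1. That call was lost without WT library 1, WT library 2 or KI library 2 (adjusted p = 0.475, 0.132 and 0.174).

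Properties for which CA2 is known were covered by further lists, in which 0 calls stand beside 0.322% of all genes tested, a share under 1 gene in lists of this size. Of 42 genes of calcium handling and plasticity brakes 33 were tested and none passed, with a median of 0.04. Atp2b2, a plasma membrane calcium pump, was at 174 and 162 CPM in WT, and at 94.9 and 123 CPM in KI (-0.57, adjusted p = 0.341), and Ryr2, the ryanodine receptor of intracellular calcium release, at 1037 and 1029 CPM in WT, and at 1239 and 1304 CPM in KI (0.36, adjusted p = 0.313). Of 27 genes of the perineuronal net and matrix 12 were tested and none passed, the lowest unadjusted p being that of the metalloproteinase Mmp17, at 96.3 and 72.6 CPM in WT, and at 26.8 and 39.3 CPM in KI (-1.32, adjusted p = 0.103). Of 39 neuromodulator receptor genes 10 were tested and none passed, with a median of -0.27. Of 18 neurotrophins, FGFs and receptors 11 were tested and none passed. Ntrk2, the BDNF receptor, was at 480.0 and 452 CPM in WT, and at 270.2 and 292 CPM in KI (-0.67, adjusted p = 0.111), while Fgf1 was at 140.1 and 194 CPM in WT, and at 12.2 and 101 CPM in KI, with KI library 1 far below the other 3.

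Of 62 axon guidance and adhesion genes 51 were tested and 1 passed, Tenm4, beside 0.322% of all genes tested. 10 had higher and 4 lower values in KI at an unadjusted p under 0.05, or 14 of 51 beside 11.6% of all genes tested. Pcdh7, a protocadherin, was at 219 and 239 CPM in WT, and at 448 and 342 CPM in KI (log2 fold change 0.86, adjusted p = 0.0717) and Cdh12, a cadherin, at 387 and 384 CPM in WT, and at 630.4 and 555 CPM in KI (0.69, adjusted p = 0.0951). Epha7, an ephrin receptor, was at 448 and 449.9 CPM in WT, and at 231 and 303 CPM in KI (-0.69, adjusted p = 0.121). Sema5a, a semaphorin of axon guidance, was at 56.9 and 51.5 CPM in WT, and at 0 and 16.8 CPM in KI, with no UMI in KI library 1 (-2.69, adjusted p = 0.0704). Of 51 respiratory chain genes 31 were tested, 0 passed and the median was 0.00. Of 24 neuropeptide and granin genes 7 were tested and 0 passed. Of 23 genes that led changes in other hippocampal neurons of these mice 6 were tested in CA2 and 0 passed, a list chosen on these samples.

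Whether the genotype effect in CA2 differed from that in its neighbours was tested as the interaction of class and genotype, blocked by mouse. Of 12524 genes, 85 (0.679%) differed between CA2 and CA1, 37 with the higher (0.295%) and 48 with the lower effect in CA2 (0.383%). Of 13215 genes, 53 (0.401%) differed between CA2 and CA3, 27 higher (0.204%) and 26 lower (0.197%). By themselves, CA1 nuclei gave 205 calls of KI against WT in 13320 genes (1.54%; 0.998% higher and 0.541% lower) and CA3 nuclei 60 in 14179 (0.423%; 0.275% higher and 0.148% lower). Leaving out 1 library gave 30 to 112 genes against CA1 (41 without KI 1, 30 without WT 1, 46 without WT 2) and 29 to 92 against CA3 (92 without KI 2, 30 without WT 1, 29 without WT 2). Without the mouse block 3 and 2 genes were left. The block takes out the level of each mouse, so these p-values rest on differences within mice. The 3 comparisons of KI with WT share the same 4 mice.

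Some transcripts rose in CA1 and had lower values in KI than in WT in CA2. Gm20713, a transcript antisense to Gpc5, was at 45.2 and 49.2 CPM in WT, and at 26.8 and 33.7 CPM in KI in CA2 (log2 fold change -0.58, adjusted p = 0.57). In CA1 it was at 158 and 143 CPM in WT against 516 and 476 CPM in KI (1.82, adjusted p = 0.002), and in CA3 at 17.8 and 17.03 CPM in WT against 75.4 and 112 CPM in KI (2.498, adjusted p = 0.0169). The effect in CA2 differed by -2.39 from CA1 and by -3.08 from CA3 (adjusted p = 9.85e-08 and 1.14e-11), and both calls held in all 9 alternatives. Btk, Bruton's tyrosine kinase, was at 39.4 and 42.2 CPM in WT, and at 29.2 and 14.02 CPM in KI in CA2, and in CA1 at 5.21 and 3.15 CPM in WT against 40.2 and 13.2 CPM in KI (2.81, adjusted p = 0.0499). Its effect in CA2 differed by -3.62 from CA1 (adjusted p = 1.20e-08) and by -2.59 from CA3 (adjusted p = 0.000896, and 0.135 without WT library 1).

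Cntnap2, the axonal adhesion protein Caspr2, had fold changes of opposite sign in CA2 and its neighbours. It was at 1389 and 1277 CPM in WT, and at 1920.3 and 1705 CPM in KI in CA2, at 5530.0 and 4999.9 CPM in WT against 3939 and 3132 CPM in KI in CA1, and at 4113 and 3808 CPM in WT against 2879.6 and 2380.2 CPM in KI in CA3. In each class the genotypes did not overlap. The log2 fold changes were 0.51 in CA2, -0.47 in CA1 and -0.51 in CA3, none of which passed alone (adjusted p = 0.121, 0.164 and 0.116). The differences, 0.99 from CA1 and 1.002 from CA3, did pass (adjusted p = 2.11e-06 and 6.28e-07). In nuclei with at least 2 rule genes the CA2 change was -0.21. Cntnap2 was named from the adhesion list after its values were seen. Single nuclei held 144 of its 789 CA2 UMIs in KI library 1 and 78 of 545 in WT library 2. WT CA2 stood below WT CA1 and CA3, and the part of other pyramidal nuclei inside the gate was not tested.

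Genes with the higher effect in CA2 included some that were scarce in WT CA2. Chst9, a sulfotransferase of carbohydrate chains, was at 18.97 and 9.37 CPM in WT, and at 70.6 and 47.7 CPM in KI in CA2, beside 82.6 and 75.6 CPM in WT CA1 and 126 and 123 CPM in WT CA3. It was seen in 8 and 3 WT and in 9 and 5 KI nuclei of CA2. Single nuclei held 8 of its 29 UMIs in KI library 1 and 6 of 17 in KI library 2. Its effect differed by 2.39 from CA1 and 3.06 from CA3 (adjusted p = 8.40e-06 and 1.20e-10), and by -2.01 and -1.55 in nuclei with at least 4 rule genes. Without KI library 1 the difference was 1.900 from CA1 (adjusted p = 0.0826) and 2.04 from CA3. Without WT library 1 it was 3.001 and 3.78, and without KI library 2 4.16 from CA3. Evc2, a protein of the primary cilium, was at 10.2 and 18.7 CPM in WT, and at 29.2 and 50.5 CPM in KI (differences 1.89 and 1.76, adjusted p = 0.0232 and 0.0453). It rested on 7 and 8 UMIs in WT and 12 and 18 UMIs in KI. Against CA1 its call was lost in 5 of 9 alternatives, with a difference of 1.25 without WT library 1 and 1.36 without KI library 2, and against CA3 in 6 of 9. Mdga1, a neuroligin-binding protein of synapses, was at 53.98 and 60.9 CPM in WT, and at 112 and 121 CPM in KI in CA2 and 58.6 and 62.3 CPM in WT against 27.8 and 46.5 CPM in KI in CA3 (difference 1.72, adjusted p = 6.82e-06). Chst9 and Evc2 were lower in WT CA2 than in WT CA1 and CA3, and the part of other pyramidal nuclei within the gate in their differences was not tested.

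**Figure D5:**
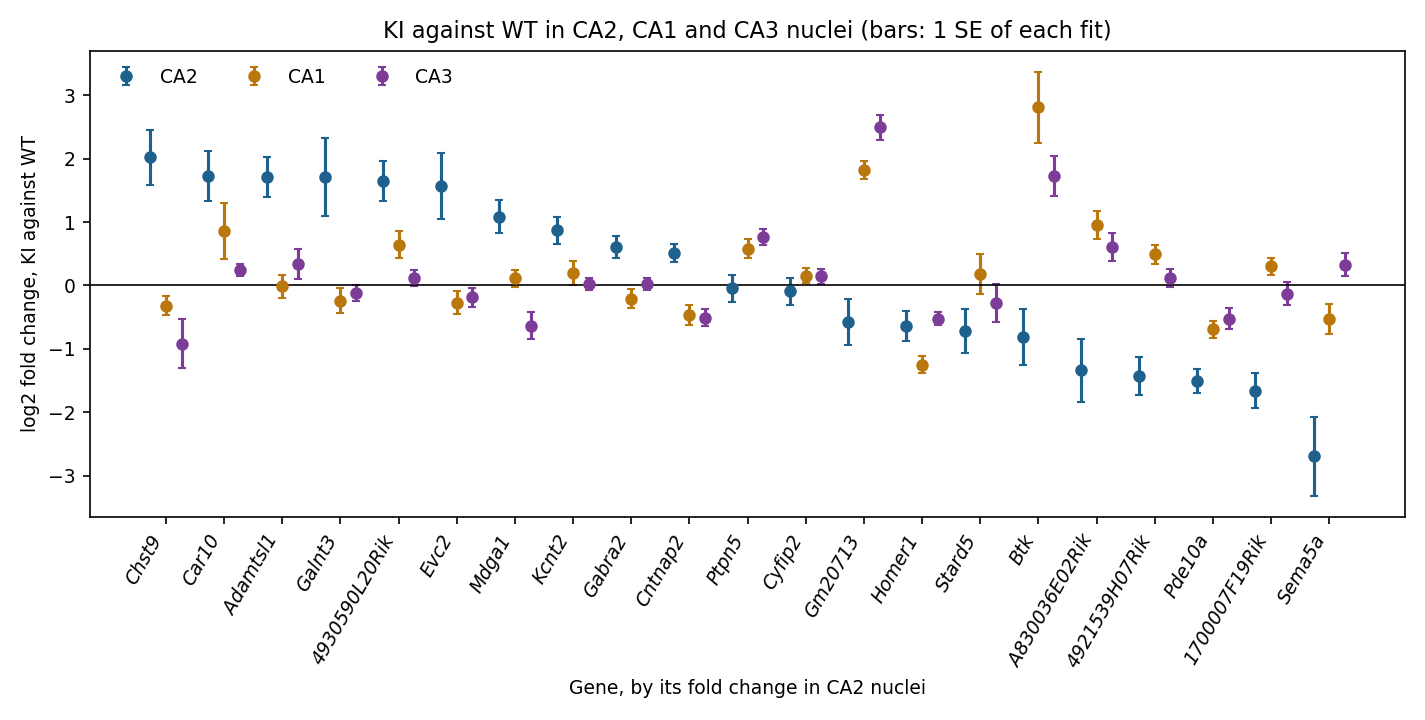
Log2 fold change of KI against WT in CA2, CA1 and CA3 nuclei, with bars of 1 SE of each fit, for genes named in the tests of the difference and for Pde10a, Cntnap2 and Cyfip2. Gm20713 and Btk lie above 0 in CA1 and CA3 and below 0 in CA2, Pde10a is lowest in CA2, and Cyfip2 lies between -0.089 and 0.15.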

How the data were processed

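Nuclear RNA of 4 libraries (2 WT, 2 KI) was profiled by 10x Genomics 3′ sequencing. The deposited files hold raw UMI counts per gene and barcode, made by the authors with Cell Ranger 7.0.1 per the file headers, against mm10 per the submitters' processing notes. Of 32285 gene identifiers 32235 were matched to the GENCODE annotation of GRCm38, which gave the coordinates. Intron and strand settings of the counting are not given in the sources used here, and introns and antisense reads could change the values.

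Kept were nuclei in which 500 or more genes were detected and mitochondrial genes held under 5% of the UMIs. CA1 and CA3 nuclei met the same Slc17a7, Gad, granule and glial limits, held at least 3 genes of their own list (CA1: Fibcd1, Wfs1, Mpped1, Man1a, Pou3f1, Lefty1 and 1 gene not reported here; CA3: Iyd, Cdh24, Coch, Bok, Prkcd, Nectin3, Socs2, Grik4, Cpne4), fewer than 2 of the other and fewer than 2 CA2 genes. Granule genes were Prox1, Glis3, Dsp and Trpc6, and glial genes Mobp, Mog, Prr5l, Gja1, Fgfr3 and Inpp5d. Doublets were scored with Scrublet in scanpy 1.11.5 and kept in the main results. Counts were summed per library and tested with edgeR 4.0.16 (quasi-likelihood, TMM, filterByExpr, Benjamini-Hochberg adjustment over all genes tested). DESeq2 1.42.0 was an alternative. CPM were taken per library sum without TMM. Methods were tested on simulated data.

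Genes named were those past an adjusted p of 0.05, up to 12 per direction by fold change at a mean of at least 20 CPM with genotypes not overlapping, filled to 6 by the smallest p where fewer passed, up to 4 per direction for each difference between classes, and genes of fixed lists. Called genes beyond these limits (Tenm4, Gm20754, 4732471J01Rik) were named after their values were seen. Members and lists were chosen with earlier results of these data known. The study tested single nuclei, while here the mouse was the replicate. WT and KI pairs differed by more than counting noise (chi-square per degree of freedom 1.48 and 1.98).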

Additional observations from a re-analysis of the deposited data

Results flagged for a closer look

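Genes whose genotype effect in CA2 differed from that in CA1 or CA3, by the class-by-genotype test in edgeR, were picked out here, with differences in log2 fold change. Against CA1 the effect in CA2 was the higher for Chst9 (2.39, adjusted p = 8.40e-06), Galnt3 (2.02, adjusted p = 0.048), Evc2 (1.89, adjusted p = 0.0232) and Adamtsl1 (1.78, adjusted p = 9.06e-06). It was the lower for Btk (-3.62, adjusted p = 1.20e-08), Gm20713 (-2.39, adjusted p = 9.85e-08), A830036E02Rik (-2.34, adjusted p = 0.00375) and 1700007F19Rik (-1.96, adjusted p = 6.74e-13).

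Against CA3 the effect in CA2 was the higher for Chst9 (3.06, adjusted p = 1.20e-10), Evc2 (1.76, adjusted p = 0.0453), Mdga1 (1.72, adjusted p = 6.82e-06) and Car10 (1.505, adjusted p = 4.38e-06). It was the lower for Gm20713 (-3.08, adjusted p = 1.14e-11), Sema5a (-3.06, adjusted p = 1.29e-06), Btk (-2.59, adjusted p = 0.000896) and 4921539H07Rik (-1.64, adjusted p = 1.96e-11).

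Galnt3, an enzyme of mucin-type glycosylation, was at 11.7 and 7.03 CPM in WT, and at 29.2 and 33.7 CPM in KI in CA2, from 8 and 3 UMIs in WT and 12 and 12 UMIs in KI. It kept its call in 1 of 9 alternatives and lost it without any 1 library (adjusted p = 0.142 to 0.433). Evc2 lost its call in 5 of 9 alternatives against CA1 and in 6 of 9 against CA3, where the adjusted p was 0.988, 0.0868 and 0.677 without WT library 1, WT library 2 and KI library 2. Adamtsl1 lost its call against CA1 in 3 of 9, with 1.15 without WT library 1 (adjusted p = 0.452) and 0.35 with at least 4 rule genes. Car10, a carbonic anhydrase-related protein, was at 23.3 and 108 CPM in WT, and at 175 and 199 CPM in KI in CA2, so WT library 1 stood apart. Without that library the difference was 0.68, against 2.72 without WT library 2. Car10 was seen in 9 and 10 WT and in 11 and 10 KI nuclei of CA2. Single nuclei held 13 of its 46 UMIs in WT library 2, 18 of 72 in KI library 1 and 31 of 71 in KI library 2. A830036E02Rik, antisense to Krt12, was at 43.8 and 30.5 CPM in WT, and at 17.04 and 11.2 CPM in KI in CA2 (adjusted p = 0.649 without WT library 1). Without KI library 1 the difference of Sema5a was -1.79 (adjusted p = 0.159). Without KI library 1 the difference of 4921539H07Rik from CA3 was -0.94 and that of 1700007F19Rik from CA1 -1.35, against -2.53 and -2.76 without KI library 2.

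Other genes described above also differed between classes. Against CA1 the differences were 0.99 for Cntnap2, 0.82 for Gabra2, -0.802 for Pde10a and -0.91 for Stard5. Against CA3 they were 1.002 for Cntnap2, 1.497 for 4930590L20Rik, 0.82 for Kcnt2, -0.98 for Pde10a and -0.83 for Ptpn5. Both of Cntnap2 kept their call in 7 of 9 alternatives, those of Pde10a in 4 of 9, that of Stard5 in 3 of 9 and that of Ptpn5 in 2 of 9.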

How the results depend on the processing

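Against 18 genes in the comparison of KI with WT, DESeq2 called 10 (8 shared), removal of nuclei with a high doublet score 2, at least 2 rule genes 3 and at least 4 rule genes 32, library totals 5, no filter on low counts 71 and sums thinned to equal depth 4. A replicate block gave 51, though mice of the same number did not deviate together (correlation -0.0577) and share only a number. Leaving out 1 library gave 25 to 395. For CA2 against CA1 (85 genes), at least 4 rule genes gave 37, no library block 3, no filter on low counts 52 and leaving out 1 library 30 to 112. For CA2 against CA3 (53), no library block gave 2 and leaving out 1 library 29 to 92.

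Directions turned for Nrg1 (-1.32), Dpp10 (-1.19), Chst9 against CA1 (-2.01) and CA3 (-1.55) and Car10 against CA3 (-1.62) with at least 4 rule genes. With at least 2 they turned for Man1a (-0.15), Kcnq5 (-0.066) and Cntnap2 (-0.21). Cyfip2 moved to 0.000203 with at least 4 rule genes and ranged from -0.33 without KI library 2 to 0.12 without KI library 1. The cause was not tested.

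The share difference ranged from -0.185 to -0.0783 percentage points when 1 library was left out. Of 1263 values of single genes under the alternatives, 1003 kept direction and side of the threshold, 174 lost and 76 gained a call, and 10 reversed. The 1003 include genes that passed neither in the main test nor in the alternative, so they do not measure the stability of the calls. A gate with fewer than 2 CA1 and fewer than 2 CA3 genes was not run, as it left 5 nuclei. Depth is a further limit: the smallest sum held 356522 UMIs, so scarce genes rest on few molecules.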
